A study of Mus musculus with 6 samples.

Results

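The cytosolic ribosomal protein genes numbered 51 of the 34596 gene symbols named for an Illumina mouse bead array, and were read from 76 of its 46632 probes. Probes were members when the deposited symbol was that of a large subunit (Rpl) or small subunit (Rps) protein, of Rpsa or of an acidic stalk protein (Rplp0, Rplp1, Rplp2), leaving out the Rps6k kinases and pseudogene symbols. The rule uses symbols and no measured value, but it was set with earlier results of these data known. The members comprised 40 probes for 25 large subunit genes, 27 probes for 19 small subunit genes and 8 probes for 6 paralog genes (Rpl22l1, Rpl39l, Rpl3l, Rpl7l1, Rps27l and Rps4l). The remaining member, Rps19bp1, encodes a protein that binds a ribosomal protein and is not itself part of the ribosome. The symbol of 61 members matched the platform annotation, 14 had no gene there, and the Rpl31 probe is assigned there to Tbc1d8.

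Total RNA came from embryoid bodies, the aggregates that embryonic stem cells form as they differentiate, at day 3. Arrays labelled wild type (WT1, WT2 and WT3) came from control ES cells that the series names E14, and arrays labelled knockout (KO1, KO2 and KO3) from ES cells lacking endoglin (Eng), a co-receptor of the TGF-beta family. All 6 samples carry the strain label C57BL/6, which is not the background usually given for E14, and no other treatment is named. The labels do not say whether the 3 samples of a label came from separate cultures or the knockout cells from more than 1 clone, so the spread behind each p-value is that between 3 arrays of a label and may be technical.

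A ribosome joins a small subunit, which reads the mRNA, to a large subunit, which forms the peptide bond, and the ribosomal proteins are built into both subunits together with ribosomal RNA. Growing cells make these proteins in matched amounts, and embryonic stem cells and their early derivatives hold their mRNAs at high levels. In vertebrates most ribosomal protein mRNAs begin with a C followed by a run of pyrimidines, the TOP sequence, through which mTOR signalling and the protein Larp1 control their translation.

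Many annotated start sites of the members carried such a run. RefSeq promoter windows (GRCm38.p6, 250 bases before to 50 bases after the start) were found for 32 of the 44 canonical ribosomal protein genes, with 38 starts. A C at the annotated start with at least 4 further bases each C or T stood at 9 of 38 starts (23.7%), against 823 of 32851 promoters of all genes (2.51%) and 0 of 75 promoters of mitochondrial ribosomal protein genes. With the run allowed to begin up to 5 bases from the annotated start, it stood at 19 of the 38 starts, in 18.3% of all promoters and in 22.7% of the mitochondrial set. The 9 starts with such a C at the annotated base are printed with that of Rps24, which returns in the comparison of the labels. For Rps24 the nearest such C lies 1 base before the annotated start. Each line gives 15 bases before and 15 bases from the start, 5′ to 3′ on the gene's strand. Capitals mark the run from the qualifying C nearest the annotated start onward. Pyrimidines directly before that C are left in lower case, so a run can extend further upstream.
Rpl14 (chr9:120571502-120571531, plus strand): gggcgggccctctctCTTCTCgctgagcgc
Rpl28 (chr7:4792950-4792979, plus strand): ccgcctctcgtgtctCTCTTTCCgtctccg
Rpl35 (chr2:39005117-39005146, minus strand): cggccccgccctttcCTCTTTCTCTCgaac
Rpl38 (chr11:114668565-114668594, plus strand): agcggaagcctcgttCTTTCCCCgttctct
Rplp2 (chr7:141447636-141447665, plus strand): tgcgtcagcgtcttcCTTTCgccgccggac
Rps10 (chr17:27635230-27635259, minus strand): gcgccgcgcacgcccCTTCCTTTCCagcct
Rps15a (chr7:118116133-118116162, minus strand): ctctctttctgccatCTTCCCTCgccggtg
Rps18 (chr17:33955651-33955680, minus strand): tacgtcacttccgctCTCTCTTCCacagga
Rps21 (chr2:180257364-180257393, plus strand): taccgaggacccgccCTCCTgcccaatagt
Rps24 (chr14:24490663-24490692, plus strand): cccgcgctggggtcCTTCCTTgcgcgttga

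**Figure D1:**
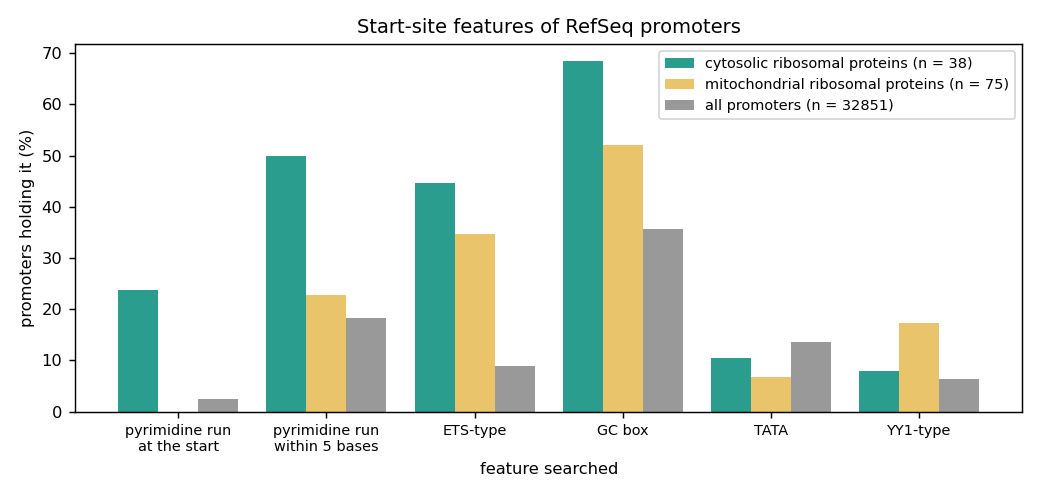
Percent of promoter windows that hold each sequence feature, for 38 starts of cytosolic and 75 of mitochondrial ribosomal protein genes and for all 32851 promoters. The pyrimidine run within 5 bases of the start stood at 19 of the 38 starts and the ETS-type motif in 44.7% of their windows, against 18.3% and 8.86% of all promoters.

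The letters CCGGAAG, the core recognised by ETS-family transcription factors, lay on either strand in 17 of the 38 windows (44.7%), against 8.86% of all promoters and 34.7% of mitochondrial ribosomal protein promoters. The GC box GGGCGG was found in 68.4% of the members' windows, 35.7% of all and 52.0% of the mitochondrial set. TATAAA stood in 10.5% against 13.6% of all and 6.67% of the mitochondrial set. AAGATGG, part of the YY1 motif, stood in 7.89% against 6.34% and 17.3%, both strands searched. Matches of CCGGAAG can share end letters with AAGATGG and with GGGCGG. A match describes the letters in this window, not a bound site.

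The arrays did not all go with their labels. Eng signal was 87.0, 90.6 and 44.4 on WT1, WT2 and WT3, and 73.5, 45.4 and 48.7 on KO1, KO2 and KO3, against a background limit of 44.7 to 45.2. WT3 was thus at the level of KO2 and KO3, and KO1 was closer to WT1 and WT2. The Eng difference (knockout minus wild type, log2) was -0.28 (SE 0.21, n = 3 per label, limma adjusted p = 1.00). Without the arrays labelled WT3 and KO1 it was -0.67. Leaving out the arrays whose Eng signal goes against their label separates Eng by construction, so no p-value is given for it there. The arrays WT1, KO1 and WT2 occupy slide positions A to C and KO2, WT3 and KO3 positions D to F. Within either set of positions, 0 to 2 of the 23728 probes kept differed by 2-fold or more in a pair of arrays, and between the sets 92 to 122 did. All 6 epiblast and early mesendoderm markers looked up (Pou5f1, Fgf5, T, Mixl1, Eomes and Mesp1) were above background on every array. Of 6 fibroblast markers, Col1a1, Col1a2, Col3a1 and Lum were above it on none, Dcn on 4 (39.9 to 49.3) and Thy1 on all 6 (161 to 198).

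Ribosomal protein probes were among the brightest on every array. A probe was kept for testing when it exceeded the background limit on at least 3 of the 6 arrays, as 66 of the 76 members did, standing for 45 genes. On single arrays 65 to 67 members exceeded the limit (85.53% to 88.16%), against 49.63% to 50.93% of all probes. Mean signal was at least 10000 for 25 members and at least 1000 for 41, lay between 100 and 1000 for 15, and was under 100 for 10 that were kept. Probes differ in how well they bind, so these signals are not transcript levels and do not rank the genes.

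Among the large subunit probes the 3 with the highest signal were for Rpl37, Rpl23 and Rpl27a. Rpl37 read 25400.2, 24648 and 25069 on WT1 to WT3 and 23470.5, 27418 and 24094 on KO1 to KO3. Rpl23, whose protein also binds the p53 regulator Mdm2, read 24826, 24343 and 24421 on the wild type arrays and 22627, 24421 and 23845 on the knockout arrays. The label ranges overlapped for both. The highest Rpl27a probe spanned 22166 to 23550.1 over the 6 arrays, or 1.06-fold.

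In the small subunit, probes for Rps14 and Rps29 were among those with the highest signals. Rps14, a protein of the small subunit platform, read 25069, 24094 and 23341 on WT1 to WT3 and 23845, 23845 and 24421 on KO1 to KO3. Rps29 read 21625, 25169 and 22627 against 22513, 23996 and 25069. Neither probe separated the labels.

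The dimmest members were at background. Of the 10 members not kept, 6 were below the limit on all arrays, 1 probe each for Rpl17, Rpl18, Rplp0, Rps18, Rps20 and Rpsa. Rpl17 read 33.5 to 41.2 and Rps20 read 30.8 to 39.7. For Rpl18, Rplp0 and Rps18 another probe of the same gene was above background, so these were dim readings of single probes. Rpl17, Rps13, Rps20, Rpsa, Rpl39l and Rpl3l had no member probe that was kept.

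**Figure D2:**
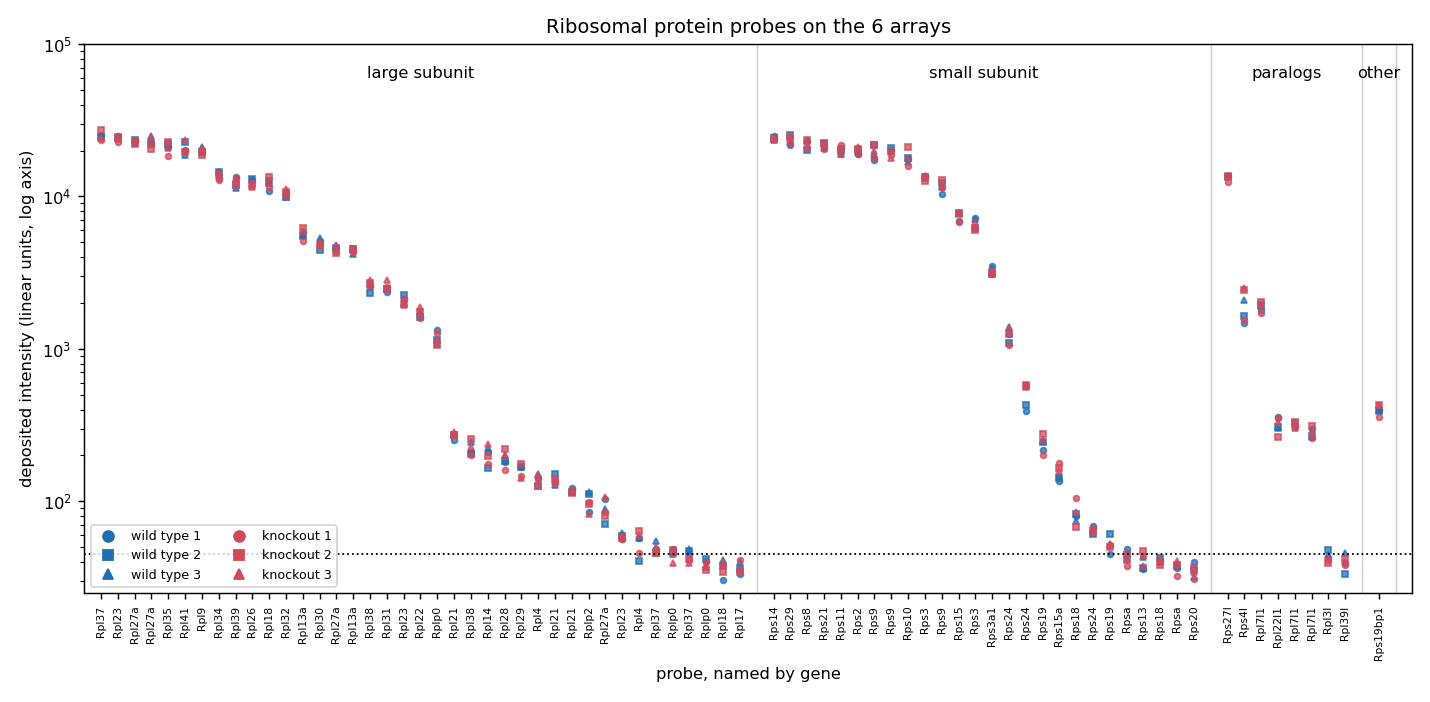
Deposited intensity (log axis) of 74 member probes, sorted by mean within each class, with 1 marker per array and the background limit dotted. The brightest members lie above 10000 on every array, and the markers of 1 probe lie close together.

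The deposited values bound what bright members could show. The 500 highest values were the same on all 6 arrays, as after quantile normalization, so a bright probe can differ between arrays only by taking another rank. Exactly 17 members stood among the 100 brightest probes on every array, and 25 among the 200 brightest. Members gave 4.38%, 4.48% and 4.40% of the summed signal on WT1, WT2 and WT3, and 4.26%, 4.50% and 4.50% on KO1, KO2 and KO3. Values matched in this way cannot show a change common to all bright transcripts. Fewer cells of a type cannot be told apart from less RNA per cell in bulk samples.

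Members varied between arrays about as little as all probes kept. The median range over the 6 arrays (log2) was 0.2357 for members and 0.2574 for all probes kept. The highest array exceeded the lowest by 1.06-fold to 1.70-fold over the 66 members kept (median 1.2-fold), and by at most 1.34-fold for the 25 with a mean of at least 10000. A spread of 1.5-fold or more was seen for 4 of 66 members (6.06%), against 9.73% of all probes kept. These were Rps4l and dim probes for Rps18, Rpl4 and Rpl27a. In no pair of arrays did any member differ by 2-fold, and the median SD within labels was 0.0923 on the log2 scale, against 0.0973 for all probes kept.

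The array labelled KO1 read lowest. The median deviation of the members from their mean over the 6 arrays (log2) was 0.0094, 0.0014 and 0.0095 on WT1, WT2 and WT3, and -0.0534, 0.0286 and 0.0323 on KO1, KO2 and KO3. Over all members, KO1 thus stood below the other arrays, and KO2 and KO3 above the wild type arrays. The subunits differed on KO2, where small subunit members gave 0.0337 and large subunit members -0.0237. The latter lay below the large subunit medians on WT1, WT2 and WT3 (0.0196, -0.0197 and 0.0194). Large subunit members gave -0.0499 and small subunit members -0.0563 on KO1, where mitochondrial ribosomal protein probes gave -0.0505. Over all probes kept the array medians lay between -0.0046 and 0.0037.

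Single members followed this order in part. KO1 was the lowest of the 6 arrays for 18 of 66 members, and the other arrays for 5 (WT3) to 13 (WT1). Within slide positions A to C, 45 of 66 members were lower on KO1 than the mean of WT1 and WT2, with a median difference of -0.0438. Within positions D to F, 36 of 66 were higher on the mean of KO2 and KO3 than on WT3, with a median of 0.0234. The 2 sets of positions gave medians of opposite sign, and this difference was not tested. The shares over all probes kept were not counted, so these counts are not read as particular to the members.

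**Figure D3:**
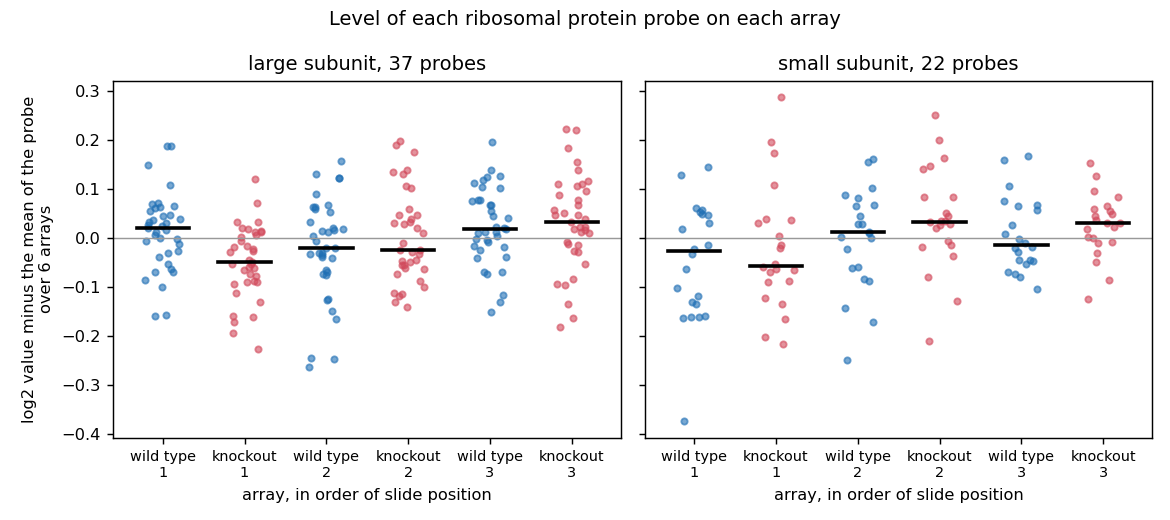
Log2 value of each kept large subunit (37 probes) and small subunit (22 probes) member minus its own mean over the 6 arrays, 1 point per probe, with arrays in order of slide position and the median as a black bar. KO1 has the lowest median in both panels, -0.0499 and -0.0563.

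No ribosomal protein gene passed the test of knockout against wild type. With a threshold of 0.05 on the adjusted p in limma (Benjamini-Hochberg over all 23728 probes kept), 0 of 66 members were called, as were 0% of all probes kept. At an unadjusted p under 0.05 there were 2 members, Rps15a and Rps24 (3.03%, against 558 or 2.35% of all probes kept). Of the 66 differences, 33 were above 0 and 33 below, with a median of -0.0004 (all probes kept, 0.0024). By subunit, 16 large subunit members were higher and 21 lower on the knockout arrays (median -0.0058), and 14 small subunit members were higher and 8 lower (median 0.0224).

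The intervals show what sizes the 3 against 3 arrays left room for. Differences ran from -0.13 to 0.31 on the log2 scale, and 57 of 66 were under 0.1 in size. The 95% interval of the fold change lay within 1.5-fold in either direction for 58 of the 59 canonical members kept. These include 10 probes with a mean signal under 100, whose differences and intervals the background correction narrows. For the dim Rpl27a probe the SE was 0.128 here and 0.217 with the background peak subtracted instead. Narrow intervals of dim probes are therefore not read as little change. For members with a mean signal of at least 10000, which came from 22 genes, the intervals lay between 0.837-fold and 1.23-fold. These intervals describe the quantile-matched values and not absolute RNA amounts.

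**Figure D4:**
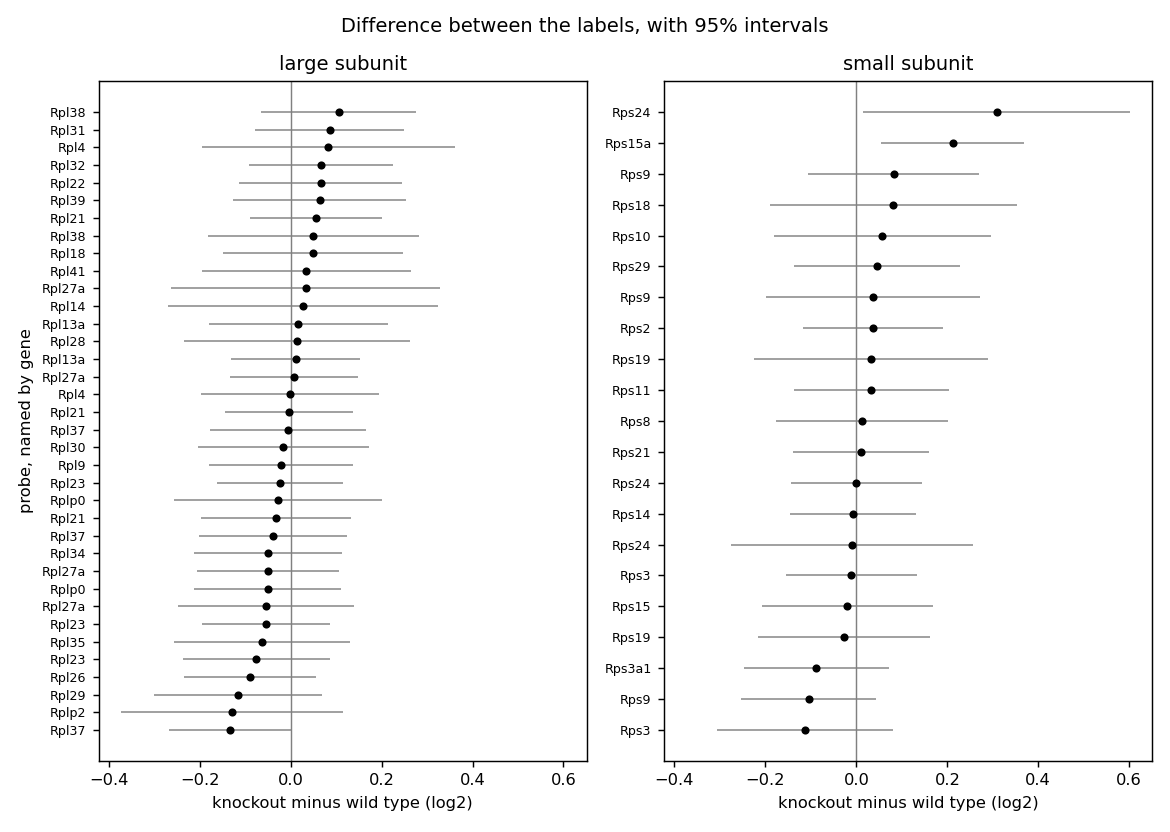
Difference between the labels (knockout minus wild type, log2) of 57 kept large and small subunit members, 1 point per probe with its 95% interval, sorted within each subunit. Differences run from -0.13 to 0.31, and the interval lies above 0 for Rps24 and Rps15a.

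Probes of 1 gene did not always move together. Of 13 genes with several kept probes, 7 had differences of both signs and 6 of 1 sign. The 3 Rps9 probes illustrate the range. Rps9, which sits near the mRNA entry of the small subunit, read 20167, 20640.0 and 19844 on WT1 to WT3 and 18785, 19759.9 and 17884 on KO1 to KO3 with 1 probe. Every knockout array was below every wild type array there (-0.10, SE 0.0642, unadjusted p = 0.141 in limma), while the other 2 Rps9 probes gave 0.04 and 0.08 with overlapping labels.

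Labels did not overlap for 3 of 66 members (4.55%, against 7.21% of all probes kept). Rps15a was higher on the knockout arrays, and that Rps9 probe and a dim Rpl37 probe were lower. The dim Rpl37 probe read 45.3, 46.9 and 48.8 on WT1 to WT3 and 41.1, 41.8 and 39.6 on KO1 to KO3, and was above background on the 3 wild type arrays only. It was kept only through the label where it was high, so nothing is read from its separation. The bright Rpl37 probe differed by -0.01.

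Among large subunit members with higher values on the knockout arrays, the smallest p-values belonged to Rpl38, Rpl31, Rpl32, Rpl21 and Rpl22. Rpl38, which in mice is needed for the translation of a subset of Hox mRNAs, read 2600.5, 2328 and 2635 on WT1 to WT3 and 2579.9, 2722 and 2835 on KO1 to KO3. KO2 and KO3 were above all wild type arrays and KO1 was within their range (0.11, SE 0.0739, unadjusted p = 0.191 in limma). Rpl31 gave 0.09, Rpl32 0.07, Rpl21 0.06 and Rpl22 0.07. The other Rpl21 probes gave -0.03 and -0.004, and the platform annotation assigns the Rpl31 probe to Tbc1d8. The labels overlapped for all 5 members with these smallest p-values, and none passed the test.

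Among large subunit members with lower values on the knockout arrays, small p-values belonged to Rpl29, Rpl26 and Rplp2, beside the dim Rpl37 probe. Rpl29 read 167, 168 and 171 on WT1 to WT3 and 148, 175 and 142 on KO1 to KO3, with KO2 the highest of the 6 (-0.12, SE 0.0804). Rpl26, which in human cells also binds the p53 mRNA, read 12792, 13029.8 and 12101 against 12192, 11964 and 11465 (-0.09, SE 0.0631). Only KO1 overlapped the wild type arrays there. Rplp2, a protein of the stalk that recruits elongation factors, read 84.8, 111 and 115 against 98.5, 95.4 and 83.1, with a difference of -0.13 and an SE of 0.106.

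Rps15a had the smallest p of the small subunit members. It read 135, 143 and 146 on WT1 to WT3 and 179.6, 164 and 158 on KO1 to KO3. All knockout arrays were above all wild type arrays, and KO1 was the highest. The difference was 0.21 (SE 0.0681, unadjusted p = 0.0145, adjusted p = 1.00 in limma), or 1.16-fold with a 95% interval of 1.04 to 1.29. It was 0.32 within slide positions A to C and 0.13 within D to F.

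Among other small subunit members, the dim Rps18 probe gave 0.08, which rested on KO1 (105 against 67.8 to 85.2 on the other arrays). On the lower side were 1 of the Rps3 probes (-0.11), Rps3a1 (-0.09), the dimmer Rps19 probe (-0.03) and Rps15 (-0.02). Rps3 lies at the mRNA entry channel, and its probe read 7245, 6186 and 7057 on the wild type arrays and 6161, 5989.7 and 6782 on the knockout arrays. Rps19, the gene most often mutated in human Diamond-Blackfan anaemia, read 45.3, 60.7 and 52.2 against 52.0, 49.9 and 51.4. For neither gene did the labels separate.

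Rps24 and Rps4l were the 2 members whose call depended on the arrays that stood apart. Rps24 is a small subunit protein, also mutated in human Diamond-Blackfan anaemia. Its probe of intermediate signal, designed from a RIKEN cDNA, read 389, 427 and 574 on WT1, WT2 and WT3 and 579, 576 and 559.9 on KO1, KO2 and KO3. WT1 and WT2 were low, and WT3 was as high as the 3 knockout arrays. The difference over all 6 arrays was 0.31 (SE 0.127, unadjusted p = 0.0413, adjusted p = 1.00 in limma).

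Without the arrays labelled WT3 and KO1, the intermediate Rps24 probe differed by 0.46 on the log2 scale (SE 0.084, limma adjusted p = 0.011), or 1.37-fold. This leaves out WT3, the wild type array on which the probe was high. The wild type arrays left lie at positions A to C and the knockout arrays at D to F. That p-value therefore does not separate label from slide position. Within slide positions A to C, KO1 exceeded WT1 and WT2 by 0.48, and within D to F the knockout arrays differed from WT3 by -0.01. The 2 other Rps24 probes did not share this pattern. The brightest read 1244, 1088 and 1382 against 1065, 1259.9 and 1369 (-0.01, SE 0.116), and the dimmest 68.5, 61.2 and 64.6 against 67.0, 64.3 and 62.9 (0.00, SE 0.0627). With those 2 arrays left out they gave 0.17 and -0.02 and were not called. For the intermediate probe, leaving out 1 array gave 0.199 (without WT1) to 0.466 (without WT3).

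Rps4l, listed in the deposited table under the older symbol Rps4y2, is annotated by RefSeq as a transcribed pseudogene on chromosome 6. It read 1480.2, 1647 and 2098 on WT1, WT2 and WT3 and 1540.0, 2427 and 2521 on KO1, KO2 and KO3. The 3 arrays at slide positions A to C were low and the 3 at D to F high, whatever their label. The difference was 0.29 (SE 0.198, unadjusted p = 0.181 in limma), and without WT3 and KO1 it was 0.66 (SE 0.0868, limma adjusted p = 0.00165), or 1.58-fold. The latter p-value likewise does not separate label from slide position. Within the 2 sets of positions the difference was -0.02 (A to C) and 0.24 (D to F). The slide position block gave 0.11, and leaving out 1 array gave 0.16 (without KO3) to 0.52 (without KO1). Whether Rps4x transcripts also bind this probe was not tested.

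**Figure D5:**
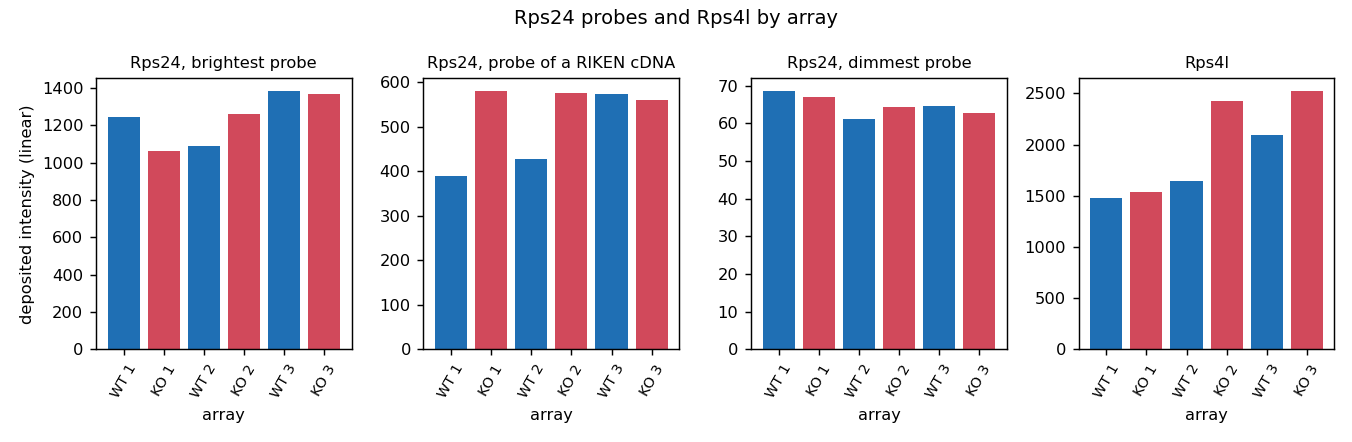
Deposited intensity (linear axes from 0, a separate scale in each panel) of the 3 Rps24 probes and the Rps4l probe, 1 bar per array in order of slide position. Rps4l reads 1480.2 to 1647 at positions A to C and 2098 to 2521 at D to F, while the intermediate Rps24 probe, from a RIKEN cDNA, is low on WT1 and WT2 only.

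These were the 2 of 66 members called without WT3 and KO1, both higher (3.03%), against 5.82% of all probes kept, of which 665 were higher and 717 lower. At an unadjusted p under 0.05 there were 4 members (6.06%, against 18.7% of all). The 4 remaining arrays hold wild type only at positions A to C and knockout only at D to F, so label and slide position cannot be told apart in that comparison. Cell type markers moved in the same setting. Of the 6 epiblast and mesendoderm markers, Fgf5 and Pou5f1 rose by 0.78 and 0.52 on the log2 scale, and Mesp1 and Mixl1 fell by 2.08 and 0.54, all called in limma. Of 4 extraembryonic endoderm markers, Gata6 and Sox17 fell by 1.22 and 0.59, also called, while 0 fibroblast and 0 erythroid markers were. Ttr was called at 0.38 but exceeded background only on KO2, WT3 and KO3 (58.1, 57.3 and 60.3). It was kept only through the arrays where it was high, so nothing is read from its call. The part of these shifts in the Rps24 and Rps4l values was not tested. The arrays to leave out were known from earlier results of these data.

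The other paralogs that were kept did not pass the test with or without those arrays. Rps27l, which in human and mouse cells is a p53 target, read 13658, 13481 and 13658 on WT1 to WT3 and 12498, 13687 and 13549 on KO1 to KO3 (-0.04, SE 0.0633), with KO1 alone low. Rpl22l1, which rises in mouse cells that lack Rpl22, read 356, 308 and 302 against 350.3, 265 and 331 (-0.03, SE 0.11). Rpl22 itself read 1626, 1609.8 and 1747 against 1596, 1756 and 1874. The labels overlapped for all 3 genes.

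Rpl7l1, a relative of Rpl7, had 3 probes. The brightest read 1812, 1936 and 1902 on the wild type arrays and 1713, 2016 and 1928 on the knockout arrays, and the other 2 gave differences of -0.02 and 0.05. Rps19bp1 read 398, 393 and 394 against 359, 427 and 428, with KO1 the lowest array and a difference of 0.03. Rpl3l, known from striated muscle, and Rpl39l, known from testis, each exceeded background on 1 of 6 arrays, with signals of 39.7 to 48.0 and 33.5 to 45.9.

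A further 23 probes for 19 ribosomal protein genes carry a ribosomal symbol in the platform annotation only and so lay outside the members. They cover 15 genes without a member, among them Rpl5 and Rpl11, whose proteins bind Mdm2 when ribosome assembly fails, and Rpl13, Rps16, Rps27 and Rps28. Rps20, at background with its member probe, read 25567.6 to 29666 with 1 of these probes. Their differences ran from -0.10 to 0.09, the smallest unadjusted p was 0.133 in limma, and none was called with or without WT3 and KO1. Together with the members, 0 of 89 probes were called and the median difference was -0.0018.

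Genes that build or serve the ribosome were read from the same fit with 1 probe per gene, the brightest, and none was called over all 6 arrays. Rack1 and Fau, cytosolic ribosome genes that the symbols miss, gave 0.04 and 0.06. Of 67 ribosome biogenesis genes, 23 were higher and 44 lower on the knockout arrays (median -0.03). An unadjusted p under 0.05 in limma was found for 8 of them (11.9%), 4 in each direction. The share was 2.35% of all probes kept, and 2.3% with only the brightest probe of each gene. The smallest p-values were those of Noc2l (-0.18, SE 0.065), Nop10 (-0.16, SE 0.064), part of the box H/ACA particles that modify rRNA, and Rpf1 (0.17, SE 0.070). Without WT3 and KO1, Nip7, Rpf2 and Senp3 were lower, by 0.43, 0.45 and 0.37 on the log2 scale (limma adjusted p = 0.0147, 0.0346 and 0.0347). These were 3 of the 67 genes, against 5.82% of all probes kept in that setting, where label and slide position cannot be told apart. Over all 6 arrays the same genes gave -0.19, -0.20 and -0.15.

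Of 19 subunits and factors of RNA polymerase I, which transcribes rRNA, 8 were higher and 11 lower (median -0.03), with Polr1d at -0.17, Polr1e at 0.12 and Twistnb at -0.16. Of 49 translation factors, 19 were higher and 30 lower (median -0.01), led by Eif2s3x at -0.25, Eef1e1 at -0.23 and Eif3e at -0.22. Without WT3 and KO1, Eef1e1 fell by 0.40 and Eef2k, the kinase that inactivates elongation factor eEF2, rose by 0.42 (limma adjusted p = 0.0362 and 0.0174), 2 of 49 against 5.82% of all probes kept. Of 73 mitochondrial ribosomal protein genes, 30 were higher and 43 lower (median -0.02), and without those arrays 1 of 73, Mrps34, was called (0.33, limma adjusted p = 0.0381), against 5.82% of all probes kept. Mrpl19 at -0.17, Mrpl11 at 0.13 and Mrps25 at 0.23 had the smallest p-values of that list. Over all 6 arrays Eef2k gave 0.03 and Mrps34 0.12, and label and slide position cannot be told apart without WT3 and KO1. Over all 6 arrays, an unadjusted p under 0.05 in limma was found for 0 of the 19, 0 of the 49 and 1 of the 73 genes (1.37%).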

How the data were processed

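Total RNA of 6 samples was isolated with Trizol, treated with DNase and turned into biotinylated cRNA for hybridisation, per the labels' protocols. The authors deposited linear intensities, with 1 value for each probe on each array. The authors' normalization is not stated in these sources. Intensities were corrected with normexp (offset 50), which shrinks differences of dim probes, and then log2-transformed (limma 3.58.1, R 4.3.3). Deposited values were not scaled further, since the columns had nearly the same distribution, with medians of 45.06 (WT2) to 45.10 (KO1). Each array's background was taken as a normal curve around its modal intensity, and the 23728 of 46632 probes above its 95th percentile on at least 3 of 6 arrays were kept. This limit is stated on the deposited intensity scale, and the number of arrays limits the precision.

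Labels were compared by lmFit and eBayes (two-sided, 3 against 3, Benjamini-Hochberg over all probes kept, threshold 0.05). The fit was tested on simulated data. Members and their symbols come from a second deposited table joined by probe ID; its 12 value columns match no sample label and were not used. All 76 members were found in the RefSeq gene table (GRCm38.p6). No genome build is stated for the array files. The members, the gene lists and the arrays to leave out were chosen with earlier results of these data known. Named genes were those called, the 5 smallest p-values per direction and subunit, the 3 brightest and 3 dimmest per subunit, the 6 widest ranges, all paralogs, and 3 per related list; a few genes that this rule or the lists take in are not reported here, and other members printed were chosen after their values were seen. Alternatives covered background correction, normalization, filters, probe choice, variance model, array weights, blocks and arrays left out.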

Additional observations from a re-analysis of the deposited data

How the results depend on the processing

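Over the alternatives run, leaving out 1 array at a time included, 0 members and 0 probes were called, except without WT3 and KO1 together, where 2 members and 1382 probes were. Those 2 members were Rps24 (0.46) and Rps4l (0.66), and the cause was not tested. Eng gave -0.675 there, but its own signal sets WT3 and KO1 apart, so its call is not read. The members' median difference ran from -0.018 with slide position as a block to 0.0212 without KO1, and leaving out 1 array gave -0.0155 to 0.0212. Eng, at -0.28 with all arrays, ran from -0.521 to -0.14 in the latter and was -0.0793 with slide position as a block. Leaving out 1 array gave Rps4l 0.164 to 0.516, the intermediate Rps24 probe 0.199 to 0.466 and Rplp2 -0.241 to -0.063, none of them called. Same-numbered samples deviated with correlations of 0.569, -0.251 and 0.493. WT1 and KO1 share slide positions A to C, WT3 and KO3 share D to F, and WT2 and KO2 lie in different sets. Whether an equal number means a pair cannot be told apart from slide position here. With the replicate block 0 members were called and the median was -0.0004. Adding the 23 platform-named probes was chosen after seeing the data.

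Small differences turned sign. Slide position as a block gave Rpl14 -0.058, Rpl22l1 0.025, Rps19bp1 -0.012 and Rps14 0.0022. Array weights gave the brightest Rpl7l1 probe 0.026, Rpl27a -0.0023, Rps15 0.011 and Rpl37 0.011. Without both arrays, Rpl7l1 gave 0.073, Rps27l 0.0052, Rpl27a -0.024, Rps18 -0.073, Rps15 0.071 and Rpl37 0.039. Leaving out 1 array gave Rpl27a -0.082 to 0.1351 (dim probe) and -0.0093 to 0.037 (bright), Rpl14 -0.0895 to 0.12, Rps19 -0.099 to 0.047, Rps27l -0.063 to 0.0020, Rpl4 -0.028 to 0.18, Rps18 -0.042 to 0.21, Rps15 -0.076 to 0.042 and Rpl22l1 -0.11 to 0.078. It gave Rpl37 -0.074 to 0.038, Rps29 -0.0017 to 0.11, Rps19bp1 -0.013 to 0.11, Rps14 -0.032 to 0.019, and the Rpl7l1 probes -0.050 to 0.066, -0.049 to 0.0073 and -0.014 to 0.11. Signals at background limit what the dim probes can show.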
